A study of Homo sapiens with 8 samples.

Results

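The genes of cholesterol and fatty acid synthesis that are driven by the sterol regulatory element-binding proteins (SREBPs) were followed in a breast cancer line starved of arginine, with and without mitochondrial DNA. The members were a list of 32 genes drawn up from the pathway and matched by symbol to the deposited table of 23393 genes. They comprised 16 enzymes of the sterol branch, 6 regulators and transport genes, and 10 genes of the fatty acid branch. All 32 passed the expression filter that left 15262 genes for testing, and the lowest count of any member in any library was 42.

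MDA-MB-231 is an established human line of triple-negative breast cancer that makes very little of the arginine-synthesising enzyme ASS1. RNA-seq was analysed in 8 libraries, 2 in each of 4 groups, namely parental control, parental starved, ρ0 control and ρ0 starved. Control cells were grown in high-glucose DMEM with serum. Per the labels, starved cells received arginine deiminase (ADI), an enzyme that degrades arginine, at 0.3 µg/mL for 48 h in the full medium, whereas the methods of the study describe a medium without arginine. That medium held dialysed serum with added glutamine and lysine, while the serum listed for maintenance was not called dialysed. If it was used, the type of serum and the lack of arginine may not be told apart. The ρ0 cells, labelled p0, were depleted of mitochondrial DNA with ethidium bromide and came from clone 27 alone. According to the methods, the ρ0 line was kept with pyruvate, uridine and ethidium bromide, which were not listed for the parental line, so that clone, mitochondrial depletion and supplements cannot be told apart in any comparison between the lines. No source stated that replicate libraries came from separate cultures. The p-values therefore measure the spread between these libraries, which may be technical.

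SREBPs are made as membrane proteins of the endoplasmic reticulum. When sterols are scarce, SCAP carries them to the Golgi, where proteases release the part that enters the nucleus, and when sterols are plentiful, the INSIG proteins hold SCAP back. SREBP-2, from SREBF2, mainly drives cholesterol synthesis and uptake, while SREBP-1, from SREBF1, mainly drives fatty acid synthesis and desaturation. SREBPs bind sterol regulatory elements and act together with NF-Y, which binds CCAAT boxes, and with Sp1, which binds GC boxes.

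Upstream sequences are shown for 6 members from all parts of the pathway as examples, since SREBPs act through such sites. RefSeq promoters (GRCh38.p14) were matched for 28 of the 32 members, in 38 windows. ACAT2, FDFT1, SQLE and FASN were not matched. Each stretch is 130 bases, from 250 to 121 bases before the annotated start, 5′ to 3′ on the strand of the gene, with capitals for the sterol element TCACNCCAC and for CCAAT, which reads ATTGG on the other strand.
SREBF2 (chr22:41832855-41832984, plus strand): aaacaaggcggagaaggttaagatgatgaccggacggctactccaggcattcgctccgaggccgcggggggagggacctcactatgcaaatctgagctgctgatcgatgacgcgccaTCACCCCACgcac
MVD (chr16:88663212-88663341, minus strand): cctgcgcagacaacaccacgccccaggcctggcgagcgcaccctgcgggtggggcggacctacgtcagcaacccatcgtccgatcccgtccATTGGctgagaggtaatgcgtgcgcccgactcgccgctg
FDPS (chr1:155308616-155308745, plus strand): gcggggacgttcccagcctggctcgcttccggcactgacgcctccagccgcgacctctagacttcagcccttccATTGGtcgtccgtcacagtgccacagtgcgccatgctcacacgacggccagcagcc
INSIG1 (chr7:155297628-155297757, plus strand): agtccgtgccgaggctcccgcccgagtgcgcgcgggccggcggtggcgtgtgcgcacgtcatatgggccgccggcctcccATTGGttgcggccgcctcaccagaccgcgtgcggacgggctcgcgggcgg
SCD (chr10:100346983-100347112, plus strand): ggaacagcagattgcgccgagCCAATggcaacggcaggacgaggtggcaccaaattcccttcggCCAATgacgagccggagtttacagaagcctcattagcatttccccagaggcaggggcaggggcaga
AACS (chr12:125065185-125065314, plus strand): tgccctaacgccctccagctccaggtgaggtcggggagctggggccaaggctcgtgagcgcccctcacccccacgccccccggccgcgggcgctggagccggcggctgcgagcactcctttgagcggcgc
Among the 28 matched members, SREBF2 was the only one with the sterol element spelled in this form within 250 bases of the start, and 0.883% of all 35116 promoter windows held it on either strand. MVD, FDPS and INSIG1 each show 1 CCAAT box and SCD shows 2, while the stretch of AACS holds neither motif. The windows of 250 bases for CYP51A1, FADS1 and FADS2, which fell in starved parental cells, also held neither motif. Those of ACACA, which rose there, held 2, 1 and 0 CCAAT boxes. Whether the motifs go with the direction of change was not tested. CCAAT on either strand was found in 70.6% of the 17 windows of sterol enzymes, in 50% of the 14 windows of the fatty acid branch and in 42.9% of the 7 windows of regulators and transport genes, against 32% of all windows. GC boxes (GGGCGG on either strand) were in 86.8% of the members' windows, against 42.6% of all windows. The E-box CACGTG was in 7.89%, against 6.34%. These are matches of letters, and binding was not measured here. Other spellings of the sterol element and bases outside the windows were not searched, so a window without a match may still belong to an SREBP target.

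Libraries held 25259503 to 31022155 counts. VIM, CD44 and MSN, markers of this mesenchymal-like line, were expressed in every library, and ESR1 and PGR were at or near 0. ERBB2, listed with ESR1 and PGR as low or absent in this line, was detected in every library, with 759 to 2702 counts. EPCAM lay between 0 and 0.521 CPM (read counts normalised to the scaled size of each library) in the parental libraries and between 16.4 and 23.7 in the ρ0 libraries, CDH1 was up to 0.0709 against 4.31 to 15.9, and ASS1 was up to 0.300 against 6.35 to 23.1, so transcripts of epithelial genes and of ASS1 were detected in the ρ0 clone that were at or near 0 in parental cells. The 3 luminal markers KRT19, GATA3 and FOXA1 summed to 56.1 to 58.6 CPM in parental control, 30.4 to 31.4 in starved parental, 156 to 161 in ρ0 control and 62.1 to 73.9 in starved ρ0 libraries, with FOXA1 near 0 in the ρ0 cells. Leukocyte, endothelial, adipocyte and hepatocyte markers summed to 3.44 CPM or less per list in each library, and CD3E was at 0 throughout. The ρ0 control libraries stood apart from each other. Their biological coefficient of variation was 25.1%, against 1.84% to 5.18% within the other pairs, and the median gap between replicates over the members was 0.34 on the log2 scale, against 0.05 to 0.06. ρ0 control library 2 lay below library 1 for 29 of the 32 members, and for 20 of them it was nearer to the starved ρ0 libraries than to library 1. Every value that rests on this pair is therefore read with the 2 libraries in view, and the fold changes without each of them are given where they matter. A fit without either of them takes its spread from the other, tighter pairs. Its p-values do not measure the spread of ρ0 controls, so calls from such fits are not read as tests. All 8 libraries were otherwise fitted together, so this spread also enters the standard errors of the other comparisons.

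In parental cells, arginine starvation lowered most of the pathway. Of the 32 members, 23 fell and 3 rose at an adjusted p-value under 0.05, where 35.5% of all tested genes fell and 30.4% rose. With a log2 fold change below -1, 15 members fell, against 22.1% of all genes, and with one above 1, 1 member rose, against 12.7%. The median log2 fold change of the members was -0.97, and that of all tested genes was -0.07. As a share of all counts, the members made up 0.617% and 0.625% in the parental control libraries and 0.339% and 0.337% in the starved ones. A lower level in such bulk RNA can come from fewer cells of a type or from less RNA per cell, which cannot be told apart.

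By branch, 14 of the 23 members that fell were sterol enzymes. Among the 16 of this branch, 14 fell and none rose, 10 of them with a log2 fold change below -1, and the median was -1.34. Of the 6 regulators and transport genes, 5 fell and none rose, with a median of -1.05. The fatty acid branch was mixed. Of its 10 genes, 4 fell, 3 rose and 3 did not pass the test, with a median of -0.41. This branch includes the substrate genes AACS, which rose, and ACSS2 and ACLY, which fell. Acetyl-CoA, made by ACSS2 and ACLY, is also where the sterol branch starts, so the counts depend on this assignment. The difference between the branches is given as counts and medians, without a test.

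In ρ0 cells the same starvation lowered 12 members and raised none, where 22.1% of all tested genes fell and 19.2% rose. Of these 12, 7 had a log2 fold change below -1, against 8.19% of all genes, and none had one above 1, against 4.22%. The members' median was -0.41, and that of all genes was -0.02. By branch, 7 of 16 sterol enzymes, 1 of 6 regulators and transport genes and 4 of 10 fatty acid genes fell, with medians of -0.51, -0.51 and -0.16. All 12 kept their sign without either ρ0 control library, but the counts did not hold. Without library 1, 12 members fell and 5 rose, and without library 2, 26 fell and 2 rose. The median of the sterol enzymes was -0.13 without library 1 and -0.89 without library 2. The members took 0.439% and 0.313% of counts in the ρ0 control libraries and 0.259% and 0.260% in the starved ones.

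The 2 responses share no library and could be set against each other by an interaction term (ρ0 minus parental). It passed the test for 18 members. The response was less negative or more positive in ρ0 cells for 14, where 21.6% of all tested genes passed in that direction, and the reverse for 4, against 18.8% of all genes. By branch, 9 sterol enzymes passed upwards and 1 downwards, 1 of the regulators and transport genes passed upwards, and 4 fatty acid genes passed upwards and 3 downwards. All 18 kept their sign without either ρ0 control library. ASS1 was higher in the ρ0 than in the parental libraries, as given above, and its part in the difference between the responses was not tested. Counting calls in each line, 10 members fell in both, 13 fell in parental cells and did not pass in ρ0 cells, 2 fell in ρ0 cells and did not pass in parental cells, 3 rose in parental cells and did not pass in ρ0 cells, and 4 passed in neither.

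**Figure D1:**
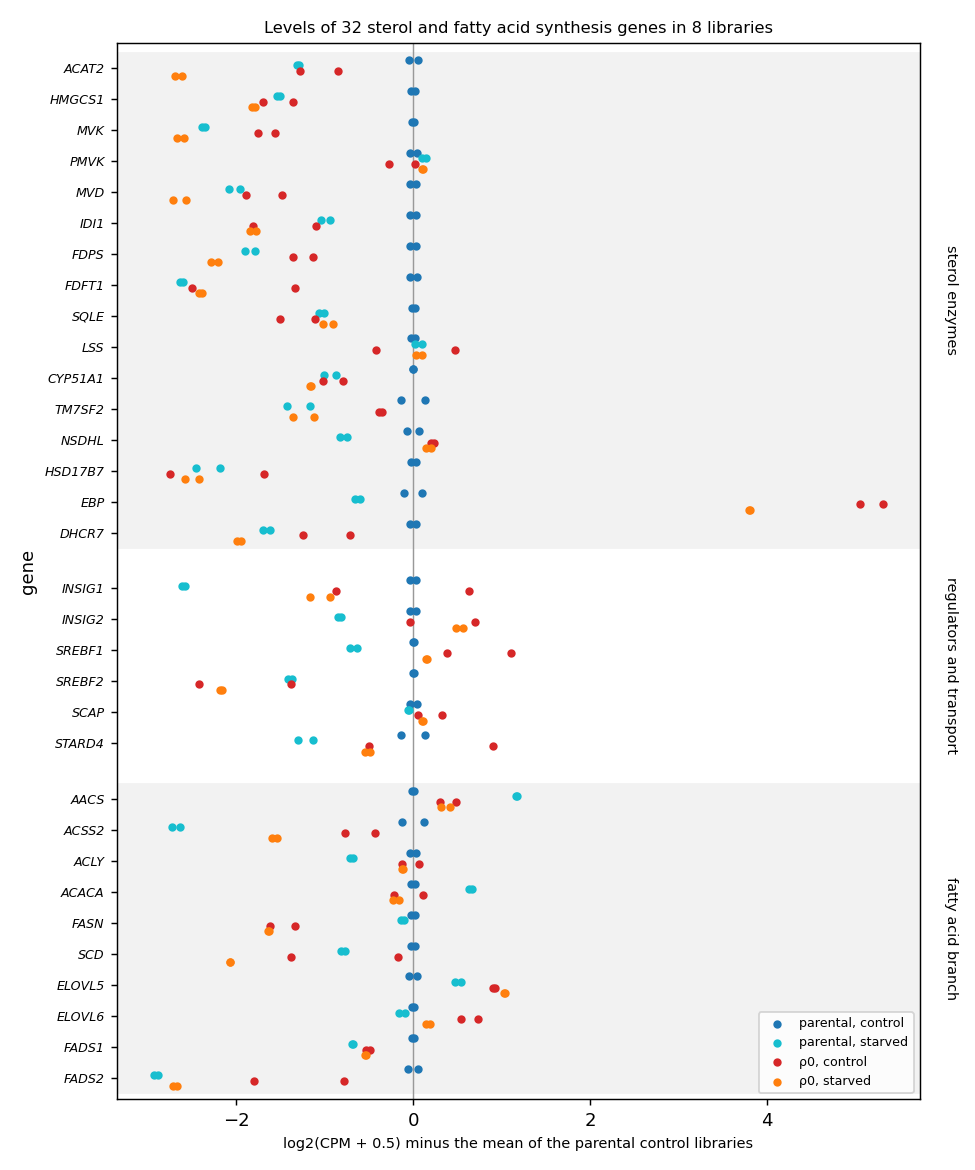
Level of each of the 32 genes in the 8 libraries, as log2(CPM + 0.5) minus the mean of the parental control libraries, with 1 point per library and 1 colour per group. Starved parental libraries lie left of the line for most sterol enzymes and right of it for AACS, ACACA and ELOVL5, while EBP lies far to the right in all ρ0 libraries and the ρ0 control points are the most spread.

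The first steps of the sterol branch make mevalonate from acetyl-CoA. ACAT2, the cytosolic thiolase, had 83.0 and 89.1 CPM in the parental control libraries, 34.5 and 34.9 in the starved parental, 47.6 and 35.3 in the ρ0 control and 13.6 and 12.9 in the starved ρ0 libraries. It was high in parental control cells, low in starved ρ0 cells and intermediate in the other groups, and it fell in both lines, by 1.31 (SE 0.14, adjusted p = 0.000142) and 1.64 (SE 0.15, adjusted p = 0.000267) on the log2 scale. HMGCS1, which makes HMG-CoA, had 184 and 178 CPM, then 63.5 and 62.1, then 70.5 and 55.6, then 52.1 and 51.1 in the same order of groups. The parental control libraries stood above all 6 others, with a fall of 1.53 (SE 0.12, adjusted p = 3.1e-05) in parental cells. In ρ0 cells the log2 fold change was -0.29 (adjusted p = 0.0776), or -0.11 without ρ0 control library 1 and -0.44 without library 2. The interaction for HMGCS1 was 1.24 (SE 0.16, adjusted p = 0.00149).

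Next, mevalonate is phosphorylated and decarboxylated to isoprenoid units. MVK, mevalonate kinase, gave 56.1 and 57.1 CPM in parental control, 10.7 and 10.4 in starved parental, 16.5 and 18.8 in ρ0 control and 8.96 and 8.49 in starved ρ0 libraries. Starved libraries were below controls in both lines without overlap, and the fall was 5.35-fold in parental cells (log2 -2.42, adjusted p = 7.98e-06) and 2.02-fold in ρ0 cells (log2 -1.02, adjusted p = 0.000497). MVK had the smallest interaction p-value of the members, at 1.40 (SE 0.15, adjusted p = 0.000774). PMVK, the next kinase in the chain, passed neither response test, with log2 fold changes of 0.13 and 0.23. The latter was 0.09 without ρ0 control library 1 and 0.40 without library 2.

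MVD, the decarboxylase, had 71.1 and 74.9 CPM in parental control, 18.5 and 16.9 in starved parental, 25.7 and 19.4 in ρ0 control and 11.9 and 10.7 in starved ρ0 libraries. Both lines showed controls above starved libraries, with falls of 2.05 (SE 0.15, adjusted p = 2.77e-05) and 0.995 (SE 0.15, adjusted p = 0.00201) on the log2 scale and an interaction of 1.05 (adjusted p = 0.00711). IDI1, the isomerase, fell by 0.998 (SE 0.20, adjusted p = 0.00316) in parental cells. Its ρ0 value of -0.40 did not pass and was 0.00 without ρ0 control library 1 and -0.71 without library 2. FDPS, which makes farnesyl diphosphate, had 198 and 209 CPM in parental control, 58.7 and 54.0 in starved parental, 92.6 and 79.0 in ρ0 control and 43.8 and 41.3 in starved ρ0 libraries. The 4 groups of FDPS did not overlap, and its falls were 1.85 (SE 0.10, adjusted p = 1.15e-05) in parental and 1.01 (SE 0.10, adjusted p = 0.000406) in ρ0 cells, with an interaction of 0.84 (adjusted p = 0.00386).

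Squalene is then made and closed into the first sterol ring. FDFT1, squalene synthase, had 331 and 350 CPM in parental control, 54.2 and 55.8 in starved parental, 135 and 59.6 in ρ0 control and 63.4 and 64.6 in starved ρ0 libraries. The fall of 2.63 (SE 0.33, adjusted p = 0.000301) in parental cells was the largest among the sterol enzymes. In ρ0 cells, library 1 of the controls lay above the starved libraries and library 2 below them, so the log2 fold change of -0.61 (adjusted p = 0.162) became 0.10 without library 1 and -1.07 without library 2. The interaction for FDFT1 was 2.02 (SE 0.45, adjusted p = 0.0105).

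SQLE, squalene epoxidase, had 63.3 and 64.9 CPM in parental control, 30.3 and 31.6 in starved parental, 29.5 and 22.2 in ρ0 control and 31.4 and 34.0 in starved ρ0 libraries. Apart from the parental controls, all libraries lay within a narrow band, and the parental fall of 1.05 (SE 0.14, adjusted p = 0.00036) passed the test. In ρ0 cells the log2 fold change was positive, at 0.34 (adjusted p = 0.083), and did not pass. That ρ0 value was 0.56 without control library 1 and 0.16 without library 2. Its interaction was 1.39 (SE 0.19, adjusted p = 0.0019). LSS, lanosterol synthase, passed in neither line with all libraries, with log2 fold changes of 0.06 and -0.02. The ρ0 value of LSS was 0.49 without ρ0 control library 1 and -0.39 without library 2.

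Later enzymes turn lanosterol into cholesterol. CYP51A1, the lanosterol demethylase, fell by 0.95 (SE 0.10, adjusted p = 0.000117) in parental cells, with an interaction of 0.68 (adjusted p = 0.00753). Its ρ0 value of -0.26 (adjusted p = 0.067) was -0.15 without control library 1 and -0.36 without library 2. TM7SF2, a sterol reductase, had 12.1 and 14.8 CPM in parental control, 4.67 and 5.71 in starved parental, 10.4 and 10.1 in ρ0 control and 5.92 and 4.93 in starved ρ0 libraries. TM7SF2 was lower under starvation in each line, by 1.37 (adjusted p = 0.000308) and 0.92 (adjusted p = 0.00505) on the log2 scale, and the interaction of 0.46 (adjusted p = 0.174) did not pass. NSDHL, which removes the methyl groups of lanosterol together with other enzymes, fell by 0.80 (SE 0.09, adjusted p = 0.000182) in parental cells against -0.04 in ρ0 cells, with an interaction of 0.76 (adjusted p = 0.00382).

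HSD17B7, the ketosteroid reductase of the same complex, had 27.7 and 28.8 CPM in parental control, 4.75 and 5.85 in starved parental, 8.47 and 3.80 in ρ0 control and 4.87 and 4.31 in starved ρ0 libraries. Only the parental control libraries were high. The parental fall was 2.41 (SE 0.33, adjusted p = 0.00045). The ρ0 value of -0.41 (adjusted p = 0.362) turned to 0.28 without ρ0 control library 1 and was -0.87 without library 2. The interaction of 2.0 (adjusted p = 0.013) did not pass in 3 of the fits with a library left out, with adjusted p-values from 0.0517 to 0.0583.

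EBP, the sterol isomerase, had another pattern, with 3.15 and 2.68 CPM in parental control, 1.66 and 1.74 in starved parental, 112 and 135 in ρ0 control and 46.8 and 47.2 in starved ρ0 libraries. The lines were far apart and the starved libraries were below the controls in each, with falls of 0.78 (SE 0.17, adjusted p = 0.00412) and 1.39 (SE 0.12, adjusted p = 0.000218). EBP was the only sterol enzyme whose interaction passed downwards, at -0.62 (adjusted p = 0.0449), and this call was lost under 12 of the alternatives tried. DHCR7, which makes cholesterol from 7-dehydrocholesterol, had 180 and 188 CPM in parental control, 56.3 and 59.8 in starved parental, 112 and 77.0 in ρ0 control and 45.7 and 47.4 in starved ρ0 libraries. Starvation lowered DHCR7 in parental cells by 1.66 (SE 0.16, adjusted p = 8.99e-05) and in ρ0 cells by 1.02 (SE 0.16, adjusted p = 0.00243). The interaction of 0.64 (adjusted p = 0.0554) did not pass, and it was 0.93 without ρ0 control library 1 and 0.37 without library 2.

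**Figure D2:**
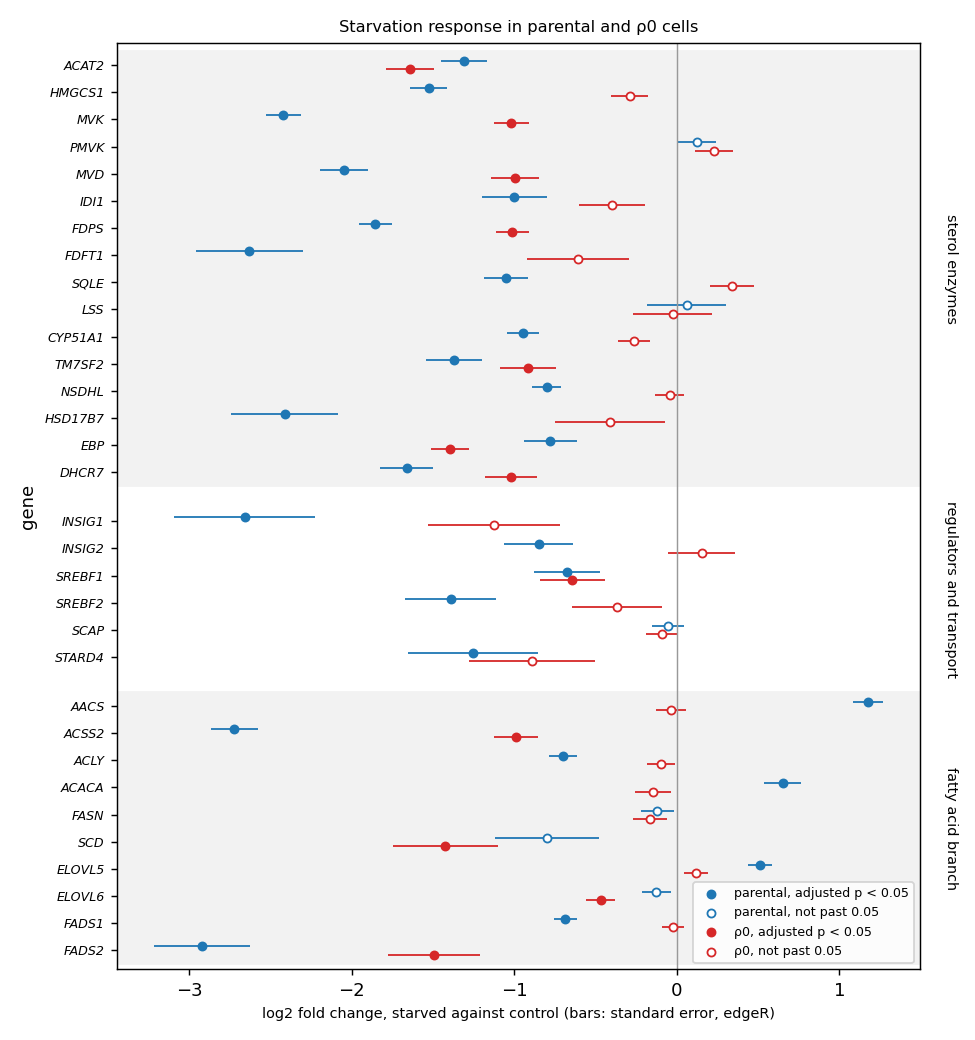
Log2 fold change of each gene under starvation in parental (blue) and ρ0 (red) cells, with bars for 1 standard error and filled points where the adjusted p-value was under 0.05. Most blue points of the sterol enzymes lie left of the red ones, and AACS, ACACA and ELOVL5 are the blue points that are filled and right of 0.

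Among the regulators and transport genes, 5 of 6 fell in parental cells, as did most sterol enzymes. INSIG1, which retains SCAP and is itself an SREBP target, had 62.8 and 66.2 CPM in parental control, 10.1 and 10.4 in starved parental, 99.8 and 35.2 in ρ0 control and 33.4 and 28.5 in starved ρ0 libraries. Starved parental cells were the lowest group, with a fall of 2.66 (SE 0.43, adjusted p = 0.00114). In ρ0 cells the log2 fold change was -1.12 (adjusted p = 0.0589), and it was -0.18 without control library 1 and -1.67 without library 2. The interaction of 1.53 (adjusted p = 0.0705) did not pass, and it was 2.48 without library 1 and 0.94 without library 2.

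SREBF2, the gene for SREBP-2, had 337 and 340 CPM in parental control, 127 and 131 in starved parental, 130 and 63.0 in ρ0 control and 74.4 and 75.1 in starved ρ0 libraries. It fell by 1.39 (SE 0.28, adjusted p = 0.00319) in parental cells, while in ρ0 cells the starved libraries lay between the controls, with -0.37 (adjusted p = 0.326), 0.25 without control library 1 and -0.79 without library 2. STARD4, a carrier of cholesterol between membranes, had 30.9 and 25.6 CPM in parental control, 12.6 and 11.1 in starved parental, 52.9 and 19.8 in ρ0 control and 19.97 and 19.2 in starved ρ0 libraries. ρ0 control library 1 was the highest and the starved parental libraries were the lowest. The parental fall of 1.25 (SE 0.40, adjusted p = 0.0249) did not pass when any parental library was left out. In a fit to the parental libraries alone, without the spread of the ρ0 control pair, the fall was 1.22 (adjusted p = 1.44e-08). The ρ0 value of -0.89 (adjusted p = 0.105) was -0.01 without control library 1 and -1.42 without library 2.

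SREBF1, the gene for SREBP-1, was the regulator that passed in both lines, falling by 0.68 (SE 0.20, adjusted p = 0.0195) in parental and by 0.64 (SE 0.20, adjusted p = 0.0367) in ρ0 cells, where it was -0.24 without control library 1. INSIG2, the second INSIG gene, fell by 0.85 (SE 0.21, adjusted p = 0.00893) in parental cells. In ρ0 cells its log2 fold change was 0.15, or 0.57 without control library 1 and -0.16 without library 2. Its interaction of 1.0 (adjusted p = 0.0313) was 1.41 without ρ0 control library 1 and 0.65 without library 2, and it did not pass when a parental or starved ρ0 library was left out. SCAP, the escort of the SREBPs, passed in neither line, with -0.05 and -0.09. The ρ0 value was 0.047 without control library 1 and -0.20 without library 2.

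In the fatty acid branch, the genes that provide substrate went in different directions. ACSS2, which makes acetyl-CoA from acetate, had 88.1 and 104 CPM in parental control, 14.1 and 15.1 in starved parental, 71.1 and 56.2 in ρ0 control and 32.7 and 31.4 in starved ρ0 libraries. Starved libraries lay below controls in both lines, with falls of 2.72 (SE 0.15, adjusted p = 1.04e-05) and 0.99 (SE 0.14, adjusted p = 0.00138) and an interaction of 1.73 (SE 0.19, adjusted p = 0.00091). AACS, which activates the ketone body acetoacetate for lipid synthesis, had 32.7 and 33.2 CPM in parental control, 75.0 and 74.2 in starved parental, 46.3 and 40.8 in ρ0 control and 41.0 and 44.1 in starved ρ0 libraries. The starved parental libraries stood above all others, with a rise of 1.18 (SE 0.09, adjusted p = 3.77e-05) against -0.03 in ρ0 cells and an interaction of -1.21 (SE 0.13, adjusted p = 0.00081).

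ACLY, which splits citrate into acetyl-CoA, fell by 0.70 (SE 0.09, adjusted p = 0.000275) in parental cells, with -0.10 in ρ0 cells and an interaction of 0.61 (adjusted p = 0.0075). ACACA, acetyl-CoA carboxylase, rose by 0.65 (SE 0.11, adjusted p = 0.0015) in parental cells, with -0.15 in ρ0 cells and an interaction of -0.80 (adjusted p = 0.00722). FASN, the fatty acid synthase itself, passed in neither line, with -0.12 (adjusted p = 0.326) and -0.16 (adjusted p = 0.234). Without ρ0 control library 2 the ρ0 values were -0.18 for ACLY, -0.29 for ACACA and -0.29 for FASN. Without library 1 they were 0.001, 0.03 and -0.02.

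Desaturases and elongases were also divided. FADS2, the delta-6 desaturase, had 279 and 301 CPM in parental control, 38.9 and 37.5 in starved parental, 168 and 82.7 in ρ0 control and 43.9 and 45.2 in starved ρ0 libraries. The parental fall of 2.92 (SE 0.30, adjusted p = 0.000105), or 7.58-fold, was the largest of any member. Starved ρ0 libraries reached nearly the same level as starved parental ones, and FADS2 fell in ρ0 cells by 1.49 (SE 0.28, adjusted p = 0.00509), or by 0.89 without control library 1. The interaction of 1.43 (adjusted p = 0.024) did not pass when a parental or starved ρ0 library was left out.

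FADS1, the delta-5 desaturase, had 263 and 260 CPM in parental control, 164 and 162 in starved parental, 186 and 180 in ρ0 control and 181 and 179 in starved ρ0 libraries. Its ρ0 libraries lay within 179 to 186 CPM, and the fall of 0.68 (SE 0.07, adjusted p = 0.000105) in parental cells differed from the value of -0.03 in ρ0 cells by 0.66 (SE 0.10, adjusted p = 0.00239). SCD, which desaturates stearate to oleate, had 1036 and 1001 CPM in parental control, 577 and 596 in starved parental, 907 and 392 in ρ0 control and 243 and 242 in starved ρ0 libraries. Starved libraries lay below controls in each line, but the parental value of -0.80 (SE 0.32) had an adjusted p of 0.0592. That SE comes from the fit to all 8 libraries, which takes in the spread of the ρ0 control pair. The fall of 1.42 in ρ0 cells (SE 0.33, adjusted p = 0.0112) was 0.70 without control library 1, and it did not pass in a fit to the ρ0 libraries alone or without either starved library, with adjusted p-values from 0.0725 to 0.0767.

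ELOVL5, the elongase of polyunsaturated fatty acids, rose by 0.51 (SE 0.07, adjusted p = 0.000601) in parental cells, with 0.12 in ρ0 cells, and its interaction of -0.40 (adjusted p = 0.0205) did not pass in 5 of the fits with a library left out. ELOVL6, which extends palmitate to stearate, fell in ρ0 cells by 0.47 (SE 0.09, adjusted p = 0.00487), while the parental value of -0.13 and the interaction of -0.34 (adjusted p = 0.0611) did not pass. The ELOVL6 interaction was -0.24 without ρ0 control library 1 and -0.46 without library 2. FADS1 and FADS2 are adjacent genes that share bases on opposite strands in the reference annotation, as ACAT2 does with TCP1, MVK with MMAB and STARD4 with its antisense RNA. FDPS and HSD17B7 have pseudogene copies. The strand setting and the handling of reads with several matches are not given in the sources used here, so reads of these neighbours and copies cannot be told apart.

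The branches were also followed over all 4 groups, as medians without a test. Relative to the parental control mean, the median over the sterol enzymes was -1.37 and -1.23 in the starved parental libraries, -0.98 and -1.32 in the ρ0 controls and -1.82 and -1.80 in the starved ρ0 libraries, on the log2(CPM + 0.5) scale. By this median, the sterol branch was lower in ρ0 controls than in parental controls and lowest in starved ρ0 cells. Its summed CPM was similar in the starved groups, with 605 and 611 in parental and 589 and 582 in ρ0 libraries. EBP alone added 46.8 and 47.2 CPM to the sums of the starved ρ0 libraries, against 1.66 and 1.74 in the starved parental ones. The fatty acid branch had medians of -0.42 and -0.42, then -0.05 and -0.38, then -0.38 and -0.35, a median over genes that went both ways. Summed over the branch, the fatty acid genes had 2582 and 2579 CPM in the starved parental libraries and 1743 and 1757 in the starved ρ0 libraries. Such a sum is weighted towards abundant genes, here FASN (mean 940 against 330 CPM) and SCD (586 against 242). By gene, 4 of the branch were higher and 4 lower in starved ρ0 than in starved parental cells. The regulators and transport genes had -0.99 and -1.06 in starved parental cells, 0.66 and -0.27 in the ρ0 controls and -0.18 and -0.22 in starved ρ0 cells. By these medians, ρ0 control library 2 lay at the level of the starved ρ0 libraries in the last 2 sets. Summed over the fatty acid branch, that library had 1961 CPM and stayed above the starved ρ0 libraries.

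**Figure D3:**
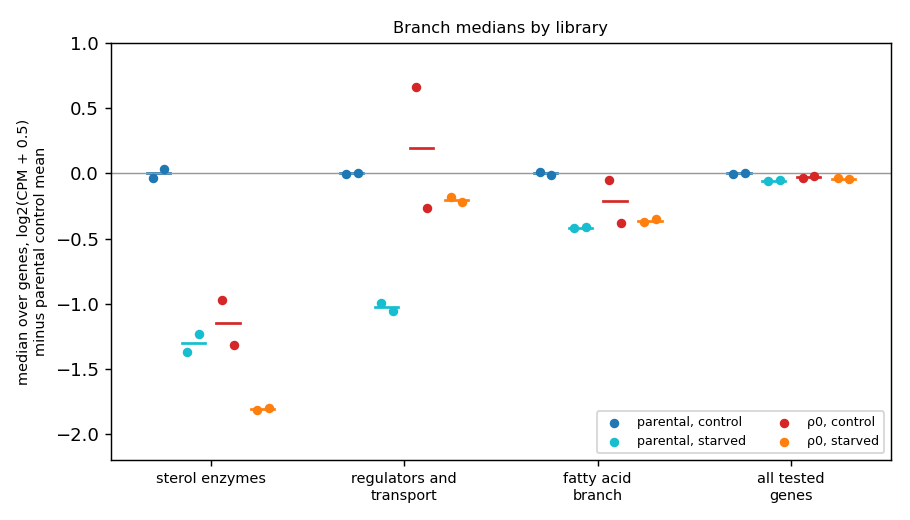
Median over the genes of each set in every library, as log2(CPM + 0.5) minus the mean of the parental control libraries, with 1 point per library and a bar for the mean of each pair. The medians of all tested genes stay near 0, while those of the sterol enzymes reach -1.82 in a starved ρ0 library.

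In full medium, ρ0 cells had lower levels of much of the sterol branch than parental cells. Of the 32 members, 16 were lower and 5 higher in ρ0 cells, where 31.8% of all tested genes were lower and 30.5% higher. With a log2 difference below -1, 12 were lower, against 17.3% of all genes, and 1 was higher with a difference above 1, against 13.6%. Of the sterol enzymes, 11 were lower and 1 was higher, with a median of -1.15, and of the fatty acid genes 4 were lower and 3 higher, with a median of -0.28. This comparison shares its control libraries with both responses, so its values are given beside them and are no separate evidence. EPCAM, CDH1, ASS1 and the luminal markers differed between the lines as well, and their part in these differences was not tested.

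The lowest sterol enzyme in ρ0 controls relative to parental controls was HSD17B7, with a difference of -2.21 (SE 0.32, adjusted p = 0.000711). FDFT1 followed with -1.81 (SE 0.32, adjusted p = 0.00184), MVD with -1.69 (SE 0.15, adjusted p = 5.28e-05) and MVK with -1.68 (SE 0.10, adjusted p = 1.22e-05). SREBF2 was lower by 1.81 on the log2 scale (SE 0.28, adjusted p = 0.00101), whereas SREBF1 was higher, with 0.79 (SE 0.20, adjusted p = 0.0101), or 0.39 without ρ0 control library 1. EBP was the exception among the enzymes, 42.2-fold higher in ρ0 cells (log2 5.40, SE 0.14, adjusted p = 5.21e-07).

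In the fatty acid branch, FASN was lower in ρ0 controls, with a difference of -1.47 (SE 0.10, adjusted p = 2.14e-05), and so was FADS2, with -1.21 (SE 0.28, adjusted p = 0.00634), which was -1.81 without ρ0 control library 1 and -0.73 without library 2. ELOVL5 was higher by 0.92 (adjusted p = 3.95e-05) and ELOVL6 by 0.64 (adjusted p = 0.000518). ACSS2 was lower, with -0.60 (adjusted p = 0.00581), or -0.38 without library 2. For INSIG1 the difference of 0.07 (adjusted p = 0.896) joined -0.87 without library 1 and 0.69 without library 2.

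Under starvation, the median difference between ρ0 and parental cells in the sterol branch lay closer to 0. Of the 32 members, 9 were higher and 9 lower in ρ0 cells, where 32.9% and 33.5% of all tested genes were. With a difference above 1 or below -1, 4 were higher, against 18.7% of all genes, and 3 lower, against 16.8%. The median over the sterol enzymes was -0.22, with 2 higher and 4 lower, and over the fatty acid genes it was 0.18, with 4 higher and 4 lower. The differences rest on the starved libraries, which are shared with the responses, and not on the levels of the ρ0 control libraries. Their standard errors and adjusted p-values come from the fit to all 8 libraries, so they take in the spread of the ρ0 control pair.

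Among the sterol enzymes, EBP was again higher in starved ρ0 cells, with 4.78 (SE 0.15, adjusted p = 7.16e-07), and NSDHL was higher by 0.98 (SE 0.09, adjusted p = 6.43e-05). ACAT2 was the lowest of the sterol enzymes relative to parental cells, with -1.39 (SE 0.15, adjusted p = 0.00012), while FDFT1, SQLE and HSD17B7 did not pass, with 0.22, 0.08 and -0.21. INSIG1 and INSIG2 were higher, with 1.60 (SE 0.43, adjusted p = 0.012) and 1.38 (SE 0.21, adjusted p = 0.000842), and SREBF2 was lower, with -0.79 (adjusted p = 0.0377). In the fatty acid branch ACSS2 was higher, with 1.13 (adjusted p = 0.000277), and FASN and SCD were lower, with -1.51 (SE 0.10, adjusted p = 1.55e-05) and -1.28 (SE 0.32, adjusted p = 0.00946).

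**Figure D4:**
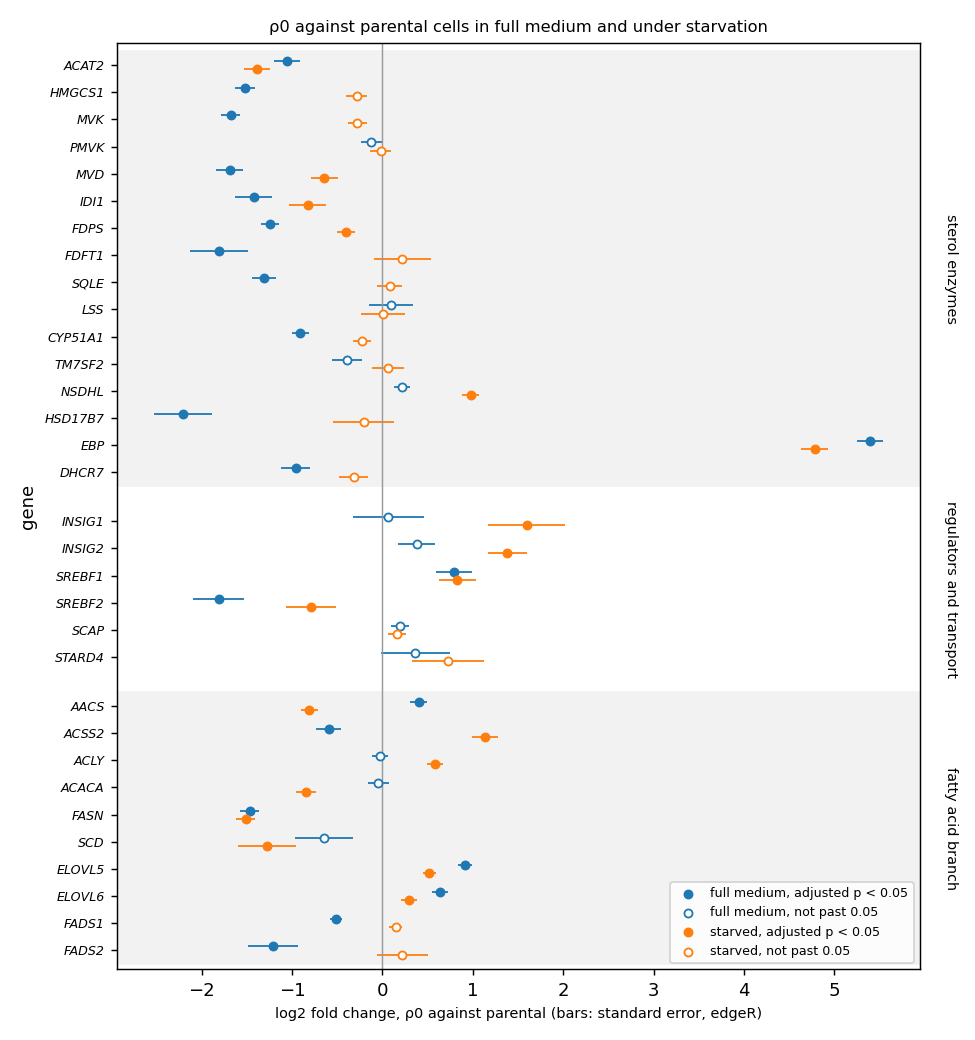
Log2 difference between ρ0 and parental cells for each gene in full medium (blue) and under starvation (orange), with bars for 1 standard error and filled points where the adjusted p-value was under 0.05. Sterol enzymes such as FDFT1 and HSD17B7 lie left of 0 in full medium and near 0 under starvation, FASN lies at about the same place in both, and EBP lies far to the right.

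Beyond the members, 47 other genes of SREBP processing, sterol synthesis, sterol transport and fatty acid metabolism were listed, of which 46 were tested. In parental cells 20 of them fell and 14 rose, and in ρ0 cells 12 fell and 7 rose, beside the shares of all tested genes given above (35.5% and 30.4% in parental, 22.1% and 19.2% in ρ0 cells). Of 6 further sterol enzymes 5 fell in parental cells and none rose, and in ρ0 cells 1 fell and 1 rose, with the same shares of all genes beside them. ACACB, the mitochondrial acetyl-CoA carboxylase, fell by 2.37 (adjusted p = 2.18e-05) in parental cells and by 1.63 (adjusted p = 0.000398) in ρ0 cells.

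In ρ0 cells, TMEM97, a sterol-regulated membrane protein, fell by 2.04 (SE 0.30, adjusted p = 0.00178), from 40.6 and 83.6 to 14.97 and 15.3 CPM, or by 1.41 without control library 2. PNPLA3, a lipid droplet protein, fell by 1.98 (SE 0.46, adjusted p = 0.0118), from 6.04 and 2.22 to 1.12 and 0.953 CPM, and the fall was 1.09 without control library 1. The cholesterol exporter ABCG1 had 3 and 5 counts in the parental control libraries, 0 and 0 in the starved parental libraries and 452 to 673 in the ρ0 libraries, so no fold change is given for parental cells.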

How the data were processed

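RNA-seq of 8 MDA-MB-231 libraries was analysed from 1 table in which the authors deposited unnormalised read counts by gene symbol. The submitters' processing notes name Bowtie, Partek and the build hg19. The annotation and the strand setting are not given in the sources used here, so counts of overlapping genes cannot be separated. No column was left unmapped. Groups were taken from the sample titles. In R 4.3.3 with edgeR 4.0.16, filterByExpr on the 4 groups kept 15262 of 23393 genes, libraries were scaled by TMM, and 1 quasi-likelihood model with a mean for each group took in all 8 libraries (4 residual degrees of freedom, prior 3.4, biological coefficient of variation 12.4%). P-values were adjusted over all tested genes by the Benjamini-Hochberg method, with a threshold of 0.05. CPM are TMM-scaled, and 0.5 was added before taking logs for levels by library. Standard errors were obtained by dividing a log2 fold change by √F.

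The members and lists were chosen with earlier results of these data known. All 32 members are named. Values in every library are given for members past a log2 fold change of 1 in either response and for the 6 smallest interaction p-values, and of the other pathway genes the 4 largest changes per response are named, apart from some that are not reported here. Alternatives were other scalings and filters, DESeq2 1.42.0, limma 3.58.1 (voom), a block for the replicate number, fits to the libraries of 1 line, a fold threshold and the omission of each library in turn. Group weights in limma-voom were an alternative chosen after seeing the data. A group left with 1 library was assumed to vary like the others. The ρ0 control pair did not, with a coefficient of variation of 25.1% against 1.84% to 5.18%, so p-values without one of its libraries are not read as tests. Tested on simulated data made for the parental response with 15262 genes, edgeR recovered 94% to 100% of 50 genes at each of 4 fold sizes and called 10 others. The simulation gave every gene and library the same coefficient of variation and changed only genes with a mean of at least 50 counts. It therefore does not cover the uneven spread of the ρ0 control pair, and the other comparisons were not simulated. The depth of 25259503 to 31022155 counts covers counting error only, and 2 libraries per group limit the precision.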

Additional observations from a re-analysis of the deposited data

Results flagged for a closer look

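The response to starvation differed between ρ0 and parental cells for 18 members by the interaction term (log2, ρ0 minus parental, adjusted p under 0.05). These results stand out because the same contrast gave unequal effects in the 2 lines. Among the sterol enzymes the differences were 1.24 for HMGCS1, 1.40 for MVK, 1.05 for MVD, 0.84 for FDPS, 2.02 for FDFT1, 1.39 for SQLE, 0.68 for CYP51A1, 0.76 for NSDHL, 2.0 for HSD17B7 and -0.62 for EBP. INSIG2 had 1.0. In the fatty acid branch they were -1.21 for AACS, 1.73 for ACSS2, 0.61 for ACLY, -0.80 for ACACA, -0.40 for ELOVL5, 0.66 for FADS1 and 1.43 for FADS2. AACS, ACACA and ELOVL5, which passed downwards, were the members that rose in parental cells, and EBP fell in both lines. ASS1 and the epithelial genes EPCAM and CDH1 were higher in the ρ0 libraries, and their part in these differences was not tested. No group had enough libraries to test for a single library far from the rest.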

How the results depend on the processing

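The counts of members past the threshold stayed within 1.5 times their main value under the other scalings, filters and tests. With a log2 fold change past 1 required, they were 16 in parental cells, 7 in ρ0 cells, 13 between the lines in full medium and 7 under starvation. Leaving out each library gave 9 to 28 members in the ρ0 response, 13 to 29 in the interaction, 23 to 24 in the parental response, 19 to 31 in full medium and 13 to 14 under starvation. The highest values, 28, 29 and 31, came without ρ0 control library 2, and without library 1 the counts were 17, 26 and 29. Leaving out either removes the pair with the most spread, and 9664 to 9750 of all genes then passed in ρ0 cells, against 6308. The sterol median in the parental response was -1.34, with -1.46 under upper quartile scaling and -1.50 under total counts. The fatty acid median of -0.41 was -0.52 and -0.57 under these scalings, -0.44 with at least 10 counts in every library and -0.36 in a fit to parental libraries alone. The median of all genes moved from -0.07 to -0.19 and -0.23 under these 2 scalings. In ρ0 cells the sterol median ranged from -0.89 to -0.13 and the fatty acid median from -0.29 to -0.01 with a library left out. Of 628 recomputed values of 41 named results, 589 kept their call, 39 lost it and none changed sign. Those lost were STARD4 in parental cells, SCD in ρ0 cells and the interactions of HSD17B7, EBP, INSIG2, ELOVL5 and FADS2. The cause was not tested. Replicate numbers did not pair the samples, since correlations of same-numbered deviations lay between -0.0971 and 0.0632. With the replicate block, 26, 12 and 18 members passed in the parental response, the ρ0 response and the interaction, 21 in full medium and 18 under starvation, and only EBP lost its interaction (-0.61, adjusted p = 0.0647).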

Other observations

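Genes around the pathway were named here after their values were seen. NPC1, which exports cholesterol from lysosomes, rose by 1.07 (SE 0.14, adjusted p = 0.00127) in ρ0 cells, with 0.06 in parental cells. In full medium it was lower in ρ0 than in parental cells, with -1.44 (SE 0.14, adjusted p = 0.000108). Of 7 listed genes of sterol uptake and transport, NPC1 was the 1 that rose in ρ0 cells and 4 fell, where 19.2% of all tested genes rose and 22.1% fell. NPC2 was among those that fell, by 0.96 (SE 0.11, adjusted p = 0.000636).

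Of 8 genes of cholesterol efflux, esterification and the liver X receptors, 7 were higher and 1 lower in ρ0 than in parental control cells, where 30.5% of all tested genes were higher and 31.8% lower. ABCA1, the exporter of cholesterol to apolipoproteins, had 37.8 to 49.3 CPM in the parental libraries and 167 to 305 in the ρ0 libraries, a log2 difference of 2.42 (SE 0.26, adjusted p = 0.000153) in full medium and 2.66 (SE 0.26, adjusted p = 8.71e-05) under starvation. SOAT1, which esterifies cholesterol for storage, was higher by 1.22 (SE 0.09, adjusted p = 2.11e-05) in full medium. NR1H3, the gene for LXR alpha, was the lower one, with -1.0 (adjusted p = 0.00158).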
